A study of Arabidopsis thaliana with 15 samples.

Results

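NBS-LRR genes encode intracellular immune receptors, and their transcripts were measured in flower buds of Arabidopsis thaliana plants with mutant alleles of histone demethylase genes. Members were all genes whose description in the deposited table contained the term NBS-LRR, which gave 114 of 33323 genes. The descriptions placed 87 of them in the TIR class and 25 in the CC class, and 2, AT5G38350 and AT5G40060, were described as NBS-LRR without a class.

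The proteins carry a nucleotide-binding switch and a leucine-rich repeat region, and they start a defence response when a pathogen effector, or its action on a host protein, is detected. TIR-class receptors open with an enzyme-like TIR domain and signal through EDS1 with PAD4 or SAG101, whereas the CC class opens with a coiled-coil domain and several of its members depend on NDR1. REF6, ELF6 and JMJ13 are jumonji-type enzymes that remove trimethyl groups from lysine 27 of histone H3, a mark found on silent genes.

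The mutants were elf6-3ref6Cjmj13G (alleles of 3 demethylase genes), elf6-3ref6C (alleles of 2 genes), and the single mutants ref6C and ref6-3, which carry different REF6 alleles. They were set against wild type (WT). No group carried elf6-3 or jmj13G without ref6C, so what these alleles do on their own cannot be told. Each group had 3 libraries of total RNA from closed flowers of 5-week-old Col0 plants grown in long days. How the alleles were made, and whether replicates came from separate plants, the sources used here do not state, so a p-value here speaks only of how much these libraries vary, and that variation may be technical. The common biological coefficient of variation was 2.51%.

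Library totals ran between 26009591 and 34140165 counts. In ref6C replicate 3, 29547 genes had at least 1 count, while the other 14 libraries ran between 25055 and 25712 such genes, and the header of the deposited table states that the authors left it out of their statistics. REF6 averaged 36.1, 36.9, 36.3 and 32.9 CPM in elf6-3ref6Cjmj13G, elf6-3ref6C, ref6C and ref6-3, against 69.4 CPM in WT. ELF6 averaged 8.67 CPM in elf6-3ref6Cjmj13G and 2.53 CPM in elf6-3ref6C, against 61.3 CPM in WT. The jumonji gene AT5G46910, taken here as the target of the jmj13G allele, averaged 9.04 CPM in elf6-3ref6Cjmj13G and 24.8 CPM in WT. It also lay below WT without that allele, at 17.95 to 18.85 CPM in elf6-3ref6C, 20.95 to 22.89 in ref6C and 21.27 to 21.65 in ref6-3. All 7 floral identity markers had counts in every group, and their summed CPM ran between 892.0 and 916.3 in elf6-3ref6Cjmj13G, 1058.0 and 1081.6 in elf6-3ref6C, 1220.4 and 1249.9 in ref6C, and 1150.5 and 1180.6 in ref6-3, against 1206.6 to 1216.6 in WT. Of these 7, 5 were called lower and 1 higher in elf6-3ref6Cjmj13G, and 5 lower and 1 higher in elf6-3ref6C. In ref6C, 2 were lower and 2 higher, and in ref6-3, 4 were lower and 1 higher. Over all genes, the shares called lower were 34.4%, 34.8%, 20.4% and 18.5% in the same order of mutants. The shares called higher were 32%, 33.7%, 18.4% and 16.2%. Summed CPM of 8 mature pollen markers ran between 204.2 and 211.6 in elf6-3ref6Cjmj13G, 139.7 and 145.1 in elf6-3ref6C, 497.4 and 519.4 in ref6C, and 178.9 and 188.2 in ref6-3, against 622.3 to 653.4 in WT. The sum of 8 tapetum markers was 553.4 to 558.7, 564.0 to 580.9, 652.5 to 671.4 and 1004.4 to 1022.5 in the same 4 mutants, against 998.4 to 1035.6 in WT. None of these markers was at 0 in any group. Green tissue markers (6 genes) summed to 7743.3 to 8162.9 CPM, 8258.0 to 8392.3, 9308.3 to 9531.4 and 10409.0 to 10612.5 in the same order, against 8996.6 to 9594.9 in WT, and 4 senescence markers summed to at most 25.5 CPM in any library. The part of other cell types in the results below was not tested. In bulk tissue, fewer cells of a type and less RNA per cell cannot be told apart.

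Receptor levels in buds spanned a wide range. On the length-scaled FPKM scale the TIR class had a median level of 1.36 in WT, with 16 of 87 members below 0.1 and a highest level of 25.97, whereas the CC class had a median of 3.54 and a highest level of 47.76. The 5 highest TIR members in WT were AT5G40910 at 25.97 ± 1.1 FPKM, AT3G44670, SNC1, RPP1 and RPP5 (SD, n = 3). SNC1 is known from a gain-of-function allele that keeps immunity switched on, and RPP1 and RPP5 recognise downy mildew. The 5 highest CC members were AT1G58807 at 47.8 ± 0.8 FPKM, AT5G48620, RPP8, AT1G58848 and AT1G59218. AT1G58807 and AT1G59124 are identical over their coding sequence, as are AT1G58848 and AT1G59218, so their separate levels rest on how reads were divided. Summed over the copies, AT1G58807 with AT1G59124 averaged 203.4 CPM in elf6-3ref6Cjmj13G, 212.8 in elf6-3ref6C, 178.6 in ref6C and 202.0 in ref6-3, against 207.8 in WT. The division of reads did shift between libraries: AT1G59218 had 12.7 CPM and AT1G58848 had 104.8 CPM in ref6C replicate 3, while their sum was 117.5 CPM there and 119.1 to 123.2 CPM in the other ref6C libraries. By group, that sum averaged 145.0 CPM in elf6-3ref6Cjmj13G, 141.8 in elf6-3ref6C, 120.0 in ref6C and 135.2 in ref6-3, against 143.5 in WT. Calls of single copies, which the CC counts below include, rest on this division too.

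Of the 114 members, 102 passed the filter on low counts, 77 of the TIR class, 24 of the CC class and AT5G40060. Among the 12 members that were not tested, no group mean exceeded 0.362 CPM, and 8 had their highest value in ref6C replicate 3. A member was called when edgeR's quasi-likelihood test gave an adjusted p below 0.05 over all 22411 genes tested. Some low members passed the filter only through the groups where they were high. Among them were RLM1, AT3G04220, AT3G25510, AT4G14370 and AT5G38340 of the TIR class and AT1G58400 of the CC class. Counts of calls that include such members are descriptions. The 4 comparisons with WT share the WT libraries, so they are not independent of each other.

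Against WT, receptor genes were more often higher than lower in elf6-3ref6C and more often lower than higher in ref6C. In elf6-3ref6C, 35 TIR members were higher and 15 lower than in WT (45.5% and 19.5% of 77), and the median log2 fold change was 0.13. Of all genes, 68.5% were called in that comparison, 33.7% higher and 34.8% lower, with a median of -0.003. In the CC class, 10 members were higher and 1 lower in elf6-3ref6C than in WT, and the median was 0.105. The higher calls of both classes stood above the background share and the lower calls below it. The CC count of lower members was 2 without WT replicate 1, WT replicate 2 or elf6-3ref6C replicate 3. Calls of at least 2-fold numbered 6 higher and 4 lower in the TIR class and 3 higher and 0 lower in the CC class, against 3.76% and 9.93% of all genes. The higher genes include AT3G04220, AT3G25510, AT4G14370, AT5G38340 and AT1G58400. These passed the filter only through the groups where they were high, so the higher counts are a description. The lower TIR genes include RLM1, which passed through WT and the single mutants, so the lower TIR counts are a description as well.

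In elf6-3ref6Cjmj13G, 23.4% of TIR members were called lower, below the background share. The other shares were near the background, at 28.6% of the TIR class higher and 29.2% of the CC class in each direction. Of the TIR members, 22 were higher and 18 lower than in WT, with a median log2 fold change of 0.02. Of the CC members, 7 were higher and 7 lower, with a median of 0.04. These include the identical copies AT1G58848 as higher and AT1G59218 as lower, whose sum averaged 145.0 CPM there and 143.5 in WT. Both calls were lost without elf6-3ref6Cjmj13G replicate 1 (edgeR adjusted p = 0.129 and 0.277). The background was 66.4% of genes called, 32% higher and 34.4% lower. Calls of at least 2-fold numbered 6 higher and 5 lower in the TIR class and 2 higher and 0 lower in the CC class, against 3% and 10.1% of all genes. The higher TIR genes include AT3G04220, AT3G25510, AT4G14370 and AT5G38340, so their count is a description for the same reason. RLM1 is among the lower TIR genes, so the lower TIR counts are a description too. The CC count of lower members was 4 without WT replicate 1 and 4 without elf6-3ref6Cjmj13G replicate 3.

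In ref6C, 3 TIR members were higher and 21 lower than in WT, and the median log2 fold change was -0.09. Over all genes, 38.8% were called, 18.4% higher and 20.4% lower, with a median of 0.002. The share of TIR members called lower was 27.3%, and the share called higher was 3.9%. In the CC class, 2 were higher and 7 lower. The lower CC genes include AT1G59218, whose call was lost without ref6C replicate 3 (edgeR adjusted p = 0.0657). Summed with its identical copy, it averaged 120.0 CPM in ref6C and 143.5 in WT. Leaving out ref6C replicate 3 gave 0 higher and 22 lower TIR members, and 2 higher and 5 lower CC members, at a background of 33.8% called, 15.5% higher and 18.3% lower. Calls of at least 2-fold numbered 0 higher and 2 lower in the TIR class, against 1.2% and 3.34% of all genes. The small count of higher TIR members was 1 without WT replicate 1, WT replicate 2, WT replicate 3 or ref6C replicate 1.

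In ref6-3, the calls were more even: 9 TIR members were higher and 12 lower than in WT, and 5 CC members were higher and 3 lower. The background was 34.7% called, 16.2% higher and 18.5% lower, against 11.7% and 15.6% of the TIR class. By 2-fold or more, calls numbered 0 higher and 3 lower in the TIR class and 1 higher in the CC class, against 0.678% and 4.99% of all genes. The CC gene was AT1G58400, which passed the filter through the groups where it was high, so that count is a description. The lower TIR counts are a description too, since they include AT3G04220, which passed the filter through the elf6-3 genotypes. The ref6-3 call of AT3G04220 was lost with DESeq2 and without any 1 of 4 libraries. Without ref6-3 replicate 1, 7 TIR members were lower and 3 CC members higher.

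**Figure D1:**
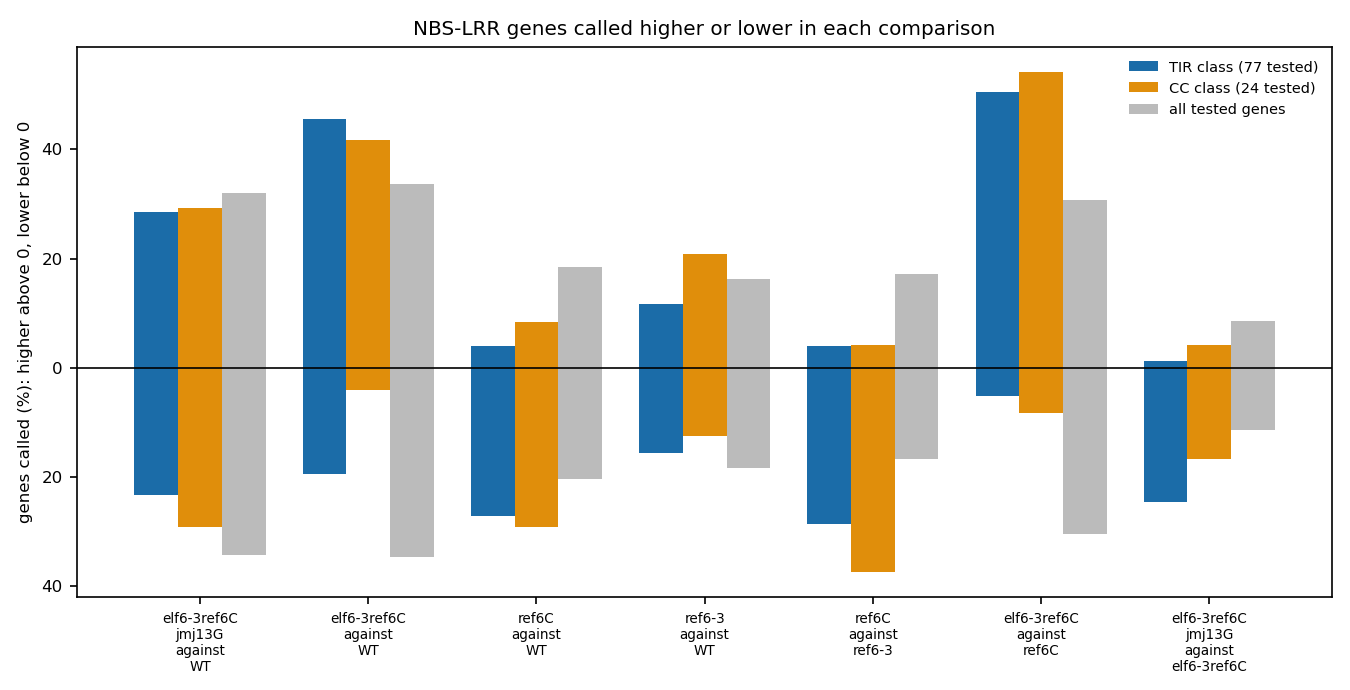
Share of tested TIR members (77), CC members (24) and all 22411 genes tested that were called higher (above 0) or lower (below 0) in each of the 7 comparisons, with the percentage on the vertical axis. In elf6-3ref6C against ref6C, 50.6% of TIR members were higher and 5.19% lower, beside 30.7% and 30.6% of all genes.

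The summed transcripts of each class were lowest in ref6C. Summed CPM of the 87 TIR members was 1239.5 to 1337.8 in elf6-3ref6Cjmj13G, 1378.1 to 1390.7 in elf6-3ref6C, 1175.7 to 1184.7 in ref6C and 1265.8 to 1286.5 in ref6-3, against 1239.4 to 1285.5 in WT. For this class the elf6-3ref6C libraries lay above, and the ref6C libraries below, every library of the other groups. For the 25 CC members the sum was 668.4 to 722.4 in elf6-3ref6Cjmj13G, 722.0 to 734.2 in elf6-3ref6C, 606.5 to 621.0 in ref6C and 673.5 to 688.7 in ref6-3, against 678.3 to 690.9 in WT. Here ref6C was again the lowest group, while elf6-3ref6C overlapped elf6-3ref6Cjmj13G. In both classes elf6-3ref6Cjmj13G replicate 3 gave the lowest of its 3 sums.

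The TIR gene AT5G41750 rose in both elf6-3 genotypes. It lies at chr5:16693832-16699028 on the plus strand (RefSeq, build TAIR10.1), next to its relative AT5G41740, with which it shares 90.04% of aligned coding bases. It had 5.43, 5.83 and 5.28 CPM in elf6-3ref6Cjmj13G, 10.7, 11.1 and 9.72 in elf6-3ref6C, 2.04, 1.32 and 1.85 in ref6C and 1.83, 1.62 and 1.49 in ref6-3, against 2.19, 2.37 and 2.54 in WT. Both elf6-3 genotypes lay above every other library, and both single mutants lay below WT. The log2 fold changes against WT were 1.22 ± 0.12, 2.15 ± 0.11, -0.45 ± 0.15 and -0.52 ± 0.15 (SE), with edgeR adjusted p of 9.3e-10, 1.2e-15, 0.018 and 0.0083. The ref6C call was lost without ref6C replicate 2 (adjusted p = 0.195) and without WT replicate 3 (adjusted p = 0.0628).

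3 further TIR genes, AT3G04220, AT4G14370 and AT5G38340, were below the expression limit of the rule for named members and were picked after their values were seen. AT3G04220 had 1.15, 1.1 and 0.937 CPM in elf6-3ref6Cjmj13G and 2.50, 2.19 and 2.29 CPM in elf6-3ref6C, against 0.270, 0.205 and 0.182 CPM in WT. Its ref6C libraries had 0.0341, 0.101 and 0.145 CPM and its ref6-3 libraries 0.112, 0.0689 and 0.0382 CPM, all below WT. The log2 fold change against WT was 2.25 ± 0.29 in elf6-3ref6Cjmj13G and 3.38 ± 0.25 in elf6-3ref6C (SE), given as a description with no test, since the gene passed the filter on low counts through the groups where it was high. AT3G01445 overlaps this gene on the opposite strand, and the sources used here do not state whether counting used the strand.

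AT4G14370 had 0.491, 0.367 and 0.562 CPM in elf6-3ref6Cjmj13G and 1.29, 0.855 and 1.14 CPM in elf6-3ref6C, against 0.135, 0.117 and 0.145 CPM in WT. The 3 groups did not overlap, and the log2 fold changes were 1.83 ± 0.40 and 3.02 ± 0.34, a description for the same reason. AT5G38340 had 30 counts over the elf6-3ref6Cjmj13G libraries and 57 over the elf6-3ref6C libraries, against 3 over the WT libraries. That is a ratio of 10.2 (95% exact interval 3.16 to 52.1) and of 20.4 (6.65 to 102), where the intervals cover counting error only. The choice of this gene also followed its values, so the ratios and intervals are a description and no test.

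RMG1 (AT4G11170), a TIR receptor gene known for control by DNA methylation, was too low to be tested and was also picked after its values were seen. It had 9, 5 and 3 counts in elf6-3ref6Cjmj13G, 15, 6 and 9 counts in elf6-3ref6C and 1, 0 and 4 counts in ref6C, and no count in any ref6-3 or WT library. Set against a floor of 3 counts over the WT group, its ratio was 5.76 in elf6-3ref6Cjmj13G and 10.8 in elf6-3ref6C. Counting error in the mutants is not included, so these ratios are not lower limits.

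**Figure D2:**
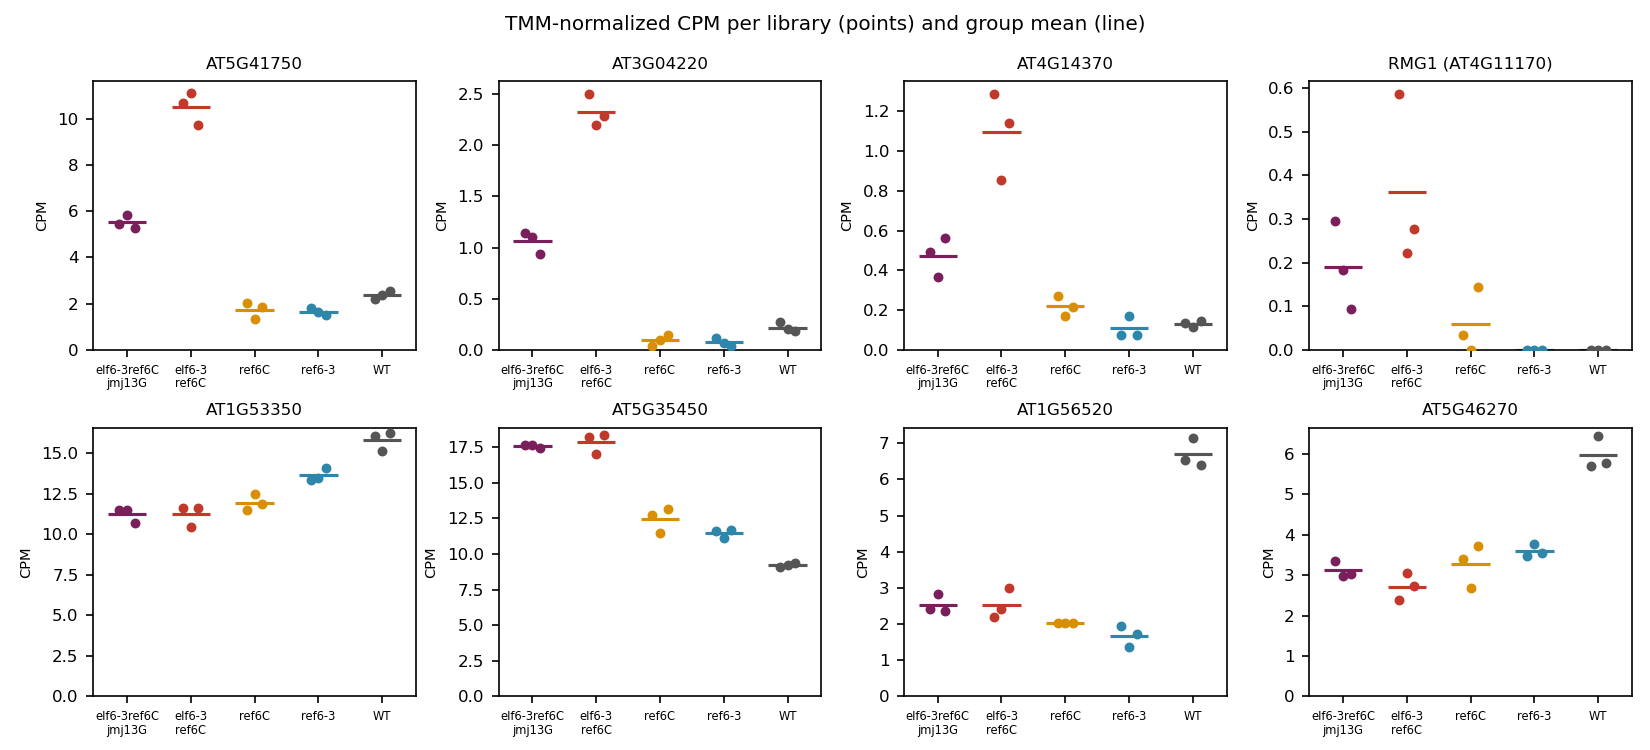
TMM-normalized CPM of 8 members in each library (points) with the group mean (line), with mutants left of WT. AT5G41750, AT3G04220, AT4G14370 and RMG1 are highest in elf6-3ref6C, AT5G35450 is lowest in WT, and AT1G53350, AT1G56520 and AT5G46270 are highest in WT.

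The bases just upstream of 4 of these genes are shown because their transcripts were far higher in both elf6-3 genotypes, and those of AT5G46260 as a contrast. Each window holds the 250 bases before the RefSeq start of the gene, 5′ to 3′ on the gene's strand (build TAIR10.1), and capitals mark the W-box core TTGAC or its complement GTCAA, the element that WRKY factors bind. The windows are chr5:16693582-16693831 (plus strand) for AT5G41750, chr3:1112438-1112687 (minus strand) for AT3G04220, chr4:8283536-8283785 (minus strand) for AT4G14370 and chr5:15320125-15320374 (plus strand) for AT5G38340. The last window, chr5:18763504-18763753 (minus strand), belongs to AT5G46260, a TIR gene that was lower in each mutant and is described further on.
AT5G41750: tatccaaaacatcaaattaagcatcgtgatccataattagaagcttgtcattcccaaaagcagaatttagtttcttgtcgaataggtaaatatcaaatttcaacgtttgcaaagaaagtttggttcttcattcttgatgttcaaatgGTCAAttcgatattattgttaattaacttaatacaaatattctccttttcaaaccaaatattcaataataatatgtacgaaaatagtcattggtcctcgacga
AT3G04220: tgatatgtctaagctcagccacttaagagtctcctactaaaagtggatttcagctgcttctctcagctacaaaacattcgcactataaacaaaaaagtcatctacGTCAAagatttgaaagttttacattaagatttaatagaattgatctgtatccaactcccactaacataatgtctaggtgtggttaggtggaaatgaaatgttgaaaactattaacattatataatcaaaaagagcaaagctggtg
AT4G14370: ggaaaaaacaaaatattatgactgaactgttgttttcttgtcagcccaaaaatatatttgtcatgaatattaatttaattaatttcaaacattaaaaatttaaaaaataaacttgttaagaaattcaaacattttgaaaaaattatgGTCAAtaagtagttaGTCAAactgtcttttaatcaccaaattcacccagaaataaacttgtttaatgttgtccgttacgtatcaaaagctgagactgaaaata
AT5G38340: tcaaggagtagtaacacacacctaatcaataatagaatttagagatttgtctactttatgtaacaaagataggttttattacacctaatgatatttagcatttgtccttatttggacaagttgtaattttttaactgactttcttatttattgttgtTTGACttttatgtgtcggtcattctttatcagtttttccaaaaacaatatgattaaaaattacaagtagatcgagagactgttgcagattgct
AT5G46260: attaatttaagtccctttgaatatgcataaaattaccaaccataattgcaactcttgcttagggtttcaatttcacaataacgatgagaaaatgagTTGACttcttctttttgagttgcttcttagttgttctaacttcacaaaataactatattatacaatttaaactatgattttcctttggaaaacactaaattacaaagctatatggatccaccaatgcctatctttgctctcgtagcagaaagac
AT4G14370 held 2 copies of the core and each of the other windows 1, so both kinds of gene held it. The core was present in 47 of 87 TIR windows (54.0%) and 16 of 25 CC windows (64.0%), against 44.9% of the windows of 27443 protein-coding genes. The motif bound by REF6, searched as CTCTGCTC, CTCTGCTT, CTCTGTTC and CTCTGTTT on both strands, was in none of the windows printed. It was in 4 TIR windows (4.6%) and 6 CC windows (24.0%), against 5.8% of all, and 4 of the CC windows belong to the copies AT1G58807, AT1G58848, AT1G59124 and AT1G59218. A match is a string of letters and was not tested as a binding site.

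Other TIR members rose by smaller steps. AT1G17600 averaged 3.96 ± 0.46 CPM in elf6-3ref6Cjmj13G and 5.63 ± 0.18 in elf6-3ref6C, against 2.55 ± 0.32 in WT (SD, n = 3 each), and its log2 fold changes were 0.62 ± 0.13 and 1.13 ± 0.12. AT5G40100 averaged 2.79 ± 0.12 and 3.795 ± 0.19 CPM in the same mutants, against 1.95 ± 0.11 in WT. AT2G16870 averaged 5.07 ± 0.60 and 5.26 ± 0.39 CPM, against 3.30 ± 0.28 in WT. For these 3 genes the 2 elf6-3 genotypes passed the test and neither single mutant did. AT1G63750 was called in elf6-3ref6C, where it averaged 3.07 ± 0.38 CPM against 1.65 ± 0.17 in WT, and not in elf6-3ref6Cjmj13G, where it averaged 1.66 ± 0.43.

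Among TIR genes with more transcript, some were higher in ref6-3 as well as in elf6-3ref6C. AT4G36150 averaged 14.7 ± 1.6 CPM in elf6-3ref6Cjmj13G, 16.4 ± 0.6 in elf6-3ref6C, 10.3 ± 0.8 in ref6C and 12.9 ± 0.5 in ref6-3, against 11.02 ± 0.15 in WT. AT5G36930 averaged 16.3 ± 0.8, 18.4 ± 0.3, 13.8 ± 1.1 and 15.8 ± 1.1 CPM in the same order, against 13.2 ± 0.5 in WT. Both passed the test as higher in elf6-3ref6Cjmj13G, elf6-3ref6C and ref6-3, and not in ref6C. CSA1, a receptor gene whose mutants respond abnormally to shade, was higher in elf6-3ref6C, by 0.31 ± 0.07, and in ref6-3, by 0.24 ± 0.07, with -0.09 ± 0.07 in ref6C and 0.10 ± 0.07 in elf6-3ref6Cjmj13G. AT5G40910, the TIR gene with the highest level in WT, averaged 101.4 ± 1.0 CPM in elf6-3ref6C and 83.5 ± 2.9 in WT, a log2 fold change of 0.28 ± 0.03 (edgeR adjusted p = 9.9e-09).

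AT1G56520, a TIR gene of chromosome 1, fell in each mutant. It had 2.42, 2.83 and 2.37 CPM in elf6-3ref6Cjmj13G, 2.19, 2.42 and 2.995 in elf6-3ref6C, 2.04, 2.03 and 2.03 in ref6C and 1.95, 1.38 and 1.72 in ref6-3, against 6.54, 7.13 and 6.39 in WT. The highest mutant library, at 2.995 CPM, lay far below the lowest WT library. Its log2 fold changes were -1.40 ± 0.12, -1.39 ± 0.12, -1.72 ± 0.12 and -2.0 ± 0.13 (SE), with edgeR adjusted p between 9.2e-13 and 6.3e-11. Its neighbour AT1G56540 averaged lower in each mutant as well, with log2 fold changes of -0.71 ± 0.21, -0.47 ± 0.20, -0.78 ± 0.21 and -0.72 ± 0.21. Its elf6-3ref6C call was lost without any 1 of 5 libraries (WT replicates 1 and 2, elf6-3ref6C replicates 2 and 3, elf6-3ref6Cjmj13G replicate 3), with adjusted p between 0.0530 and 0.190, and also with DESeq2 (0.13), with no filter (0.0522) and with the replicate block (0.0559). Its ref6-3 call was lost without WT replicate 2 or ref6-3 replicate 1 (0.0588 and 0.0824).

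AT5G46270 and AT5G46260 stand side by side on chromosome 5 and also fell in each mutant. AT5G46260 lay below the expression limit and was picked after its values were seen. AT5G46270 had 3.34, 2.97 and 3.03 CPM in elf6-3ref6Cjmj13G, 2.38, 3.05 and 2.72 in elf6-3ref6C, 3.41, 2.67 and 3.73 in ref6C and 3.48, 3.76 and 3.55 in ref6-3, against 5.70, 6.43 and 5.78 in WT. AT5G46260 had 1.15, 1.03 and 0.999 CPM in elf6-3ref6Cjmj13G, 0.859, 1.003 and 1.02 in elf6-3ref6C, 0.273, 0.710 and 0.579 in ref6C and 0.599, 0.620 and 0.687 in ref6-3, against 1.38, 1.67 and 1.74 in WT. In both genes all mutant libraries lay below all WT libraries. The deepest fall of AT5G46260 was in ref6C, at -1.61 ± 0.23, and that of AT5G46270 in elf6-3ref6C, at -1.14 ± 0.12 on the log2 scale. The elf6-3ref6Cjmj13G call of AT5G46260 was lost without WT replicate 3 (adjusted p = 0.0503) and with DESeq2 (0.0561).

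AT1G72840 and LAZ5 were lower than WT in the genotypes that carry ref6C, and neither was called in ref6-3. AT1G72840 averaged 8.39 ± 0.83 CPM in elf6-3ref6Cjmj13G, 7.70 ± 0.38 in elf6-3ref6C and 8.41 ± 0.31 in ref6C, and 12.05 ± 0.32 in ref6-3, against 12.9 ± 0.6 in WT. LAZ5, named for alleles that suppress a lesion mimic mutant, averaged 8.43 ± 0.93, 9.58 ± 0.23, 8.52 ± 0.52 and 12.04 ± 0.52 CPM in the same order of mutants, against 12.1 ± 1.0 in WT. In ref6C against ref6-3, both were lower in ref6C, by -0.52 ± 0.07 and -0.50 ± 0.08 on the log2 scale (edgeR adjusted p = 1.7e-06 and 1.3e-05).

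**Figure D3:**
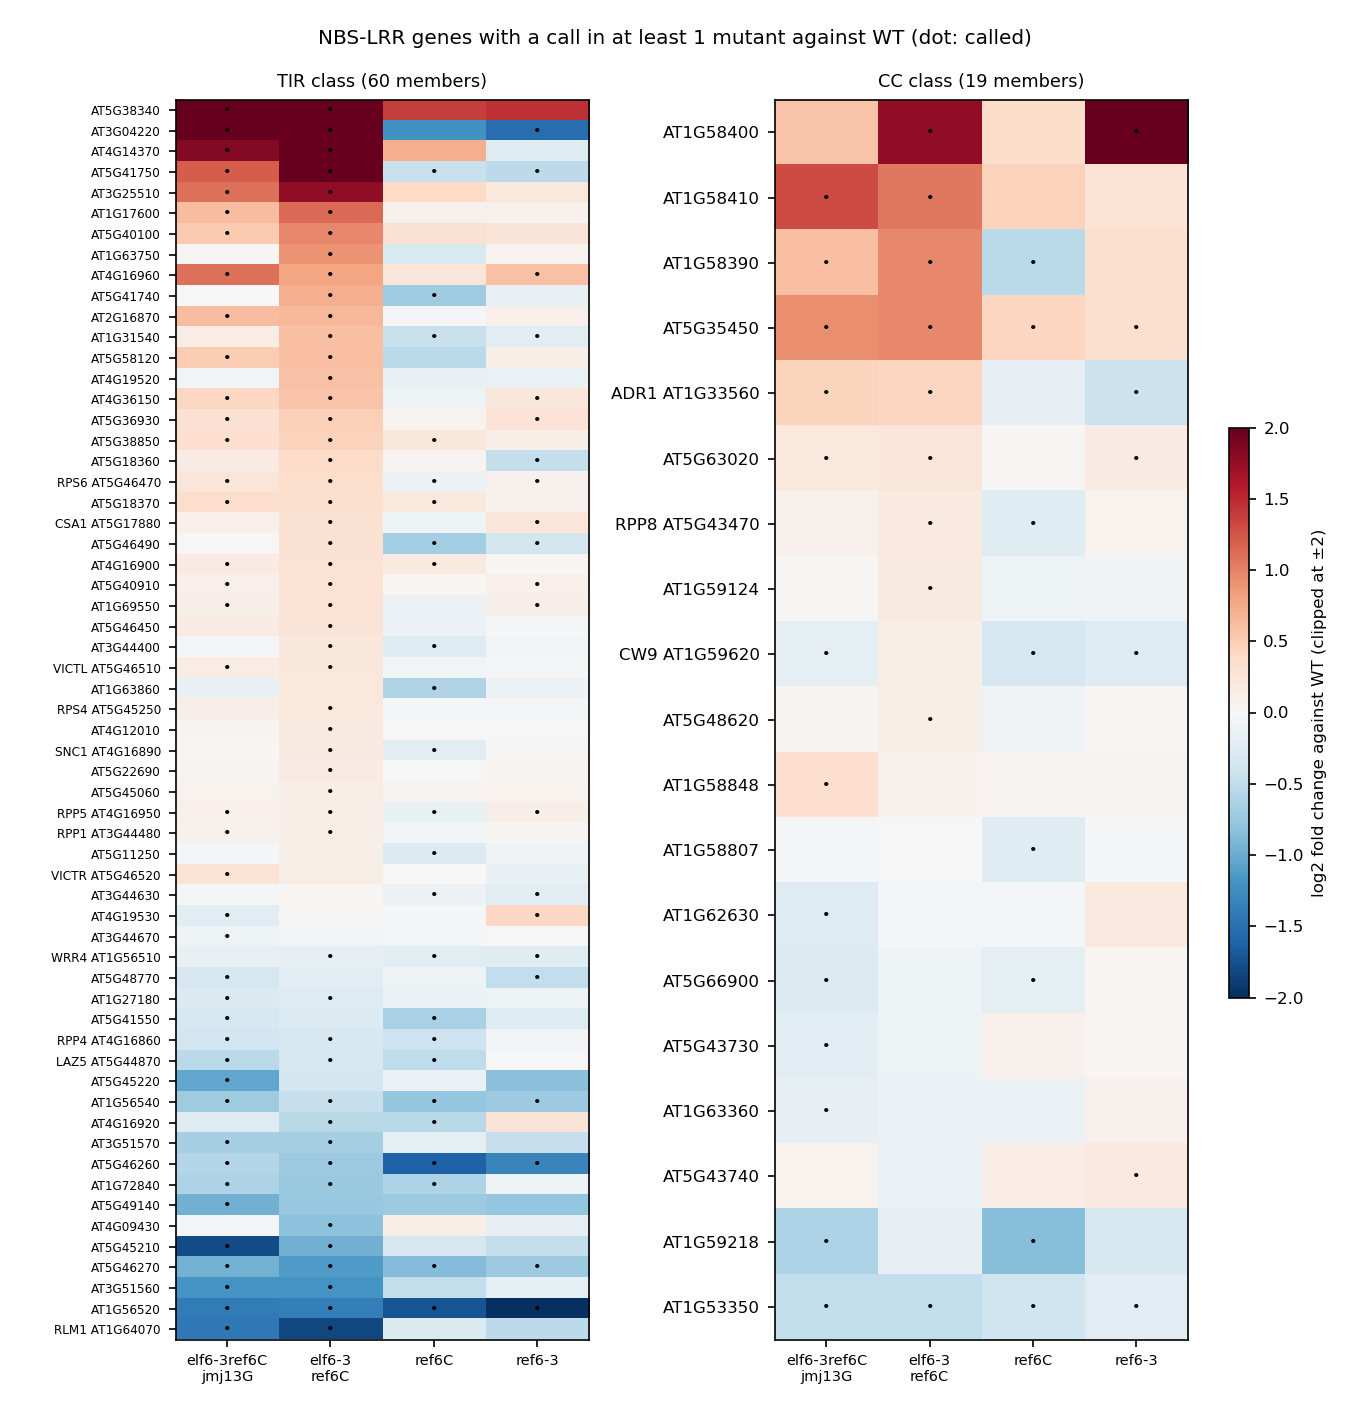
Log2 fold change against WT (colour, clipped at ±2) of 60 TIR and 19 CC members called in at least 1 mutant, with a dot where the member was called and members sorted by their value in elf6-3ref6C. AT1G56520 and AT5G46270 are blue in all 4 columns and AT5G35450 is red in all 4.

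AT5G35450 of the CC class rose in each mutant. It had 17.6, 17.6 and 17.5 CPM in elf6-3ref6Cjmj13G, 18.2, 17.0 and 18.4 in elf6-3ref6C, 12.7, 11.5 and 13.2 in ref6C and 11.6, 11.1 and 11.7 in ref6-3, against 9.11, 9.21 and 9.34 in WT. The groups fell into 3 levels that did not overlap, with WT lowest, the single mutants between and both elf6-3 genotypes highest. Its log2 fold changes were 0.93 ± 0.06, 0.96 ± 0.06, 0.43 ± 0.06 and 0.32 ± 0.06 (SE), with edgeR adjusted p of 8.1e-14, 4.2e-14, 2.1e-06 and 2.6e-04.

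Neighbouring CC genes on chromosome 1 rose in both elf6-3 genotypes. AT1G58410 averaged 2.95 ± 0.35 CPM in elf6-3ref6Cjmj13G and 2.50 ± 0.37 in elf6-3ref6C, against 1.17 ± 0.30 in WT. AT1G58390 averaged 2.78 ± 0.52 and 3.55 ± 0.49 CPM, against 1.81 ± 0.18 in WT. Between them lies AT1G58400, which was picked after its values were seen and was highest in ref6-3, with 0.898, 1.38 and 1.37 CPM there and 0.304, 0.146 and 0.109 CPM in WT (log2 fold change 2.69 ± 0.34, given with no test, since it passed the filter through the groups where it was high). ADR1, a helper receptor that acts downstream of other receptors, averaged 13.1 ± 1.2 CPM in elf6-3ref6Cjmj13G, 12.96 ± 0.47 in elf6-3ref6C, 8.58 ± 0.46 in ref6C and 7.19 ± 0.66 in ref6-3, against 9.62 ± 0.86 in WT. It passed the test as higher in both elf6-3 genotypes and as lower in ref6-3.

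AT1G53350 of the CC class fell in each mutant. It averaged 11.2 ± 0.45 CPM in elf6-3ref6Cjmj13G, 11.2 ± 0.7 in elf6-3ref6C, 11.9 ± 0.5 in ref6C and 13.6 ± 0.4 in ref6-3, against 15.8 ± 0.6 in WT. AT5G40060, the tested member without a class, fell in both elf6-3 genotypes, by -0.29 ± 0.07 and -0.48 ± 0.07 on the log2 scale, and was not called in either single mutant.

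Receptor genes with known pathogens moved in different directions within 1 group of neighbours. By distance, 77 members lay in 26 groups of members less than 50 kb apart, and 37 lay alone. The group from RPP4 to AT4G16960 on chromosome 4 holds 7 members. RPP4 had 55.6, 59.1 and 45.8 CPM in elf6-3ref6Cjmj13G, 54.5, 57.6 and 55.4 in elf6-3ref6C, 52.3, 53.3 and 51.1 in ref6C and 66.1, 64.9 and 68.7 in ref6-3, against 69.3, 71.0 and 67.8 in WT. It fell in the 3 genotypes with ref6C, by -0.38 ± 0.05, -0.32 ± 0.05 and -0.41 ± 0.05 on the log2 scale, and was not called in ref6-3 (-0.06 ± 0.05). SNC1 averaged 97.7 ± 5.5 CPM in elf6-3ref6Cjmj13G, 108.5 ± 3.0 in elf6-3ref6C, 82.4 ± 0.9 in ref6C and 97.2 ± 2.0 in ref6-3, against 95.5 ± 3.2 in WT, and passed the test as higher in elf6-3ref6C and lower in ref6C. RPP5 was lower in ref6C, by -0.15 ± 0.03, and higher by 0.11 to 0.13 in the other 3 mutants. AT4G16960, at the end of the group, averaged 7.35 ± 0.50, 5.85 ± 0.68, 4.04 ± 0.40 and 5.14 ± 0.27 CPM in elf6-3ref6Cjmj13G, elf6-3ref6C, ref6C and ref6-3, against 3.39 ± 0.29 in WT. Between these, AT4G16900 was higher in elf6-3ref6C, by 0.29 ± 0.07. AT4G16920 averaged 1.44 ± 0.28 CPM in elf6-3ref6C and 1.46 ± 0.24 in ref6C, against 2.14 ± 0.27 in WT. Its elf6-3ref6C call was lost without elf6-3ref6C replicate 2 (adjusted p = 0.0616), and its ref6C call without WT replicate 3 or ref6C replicate 2 (0.0734 and 0.0922). AT4G16960 shares 96.12% of aligned coding bases with AT4G16940, so reads of the pair may have been divided between them.

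**Figure D4:**
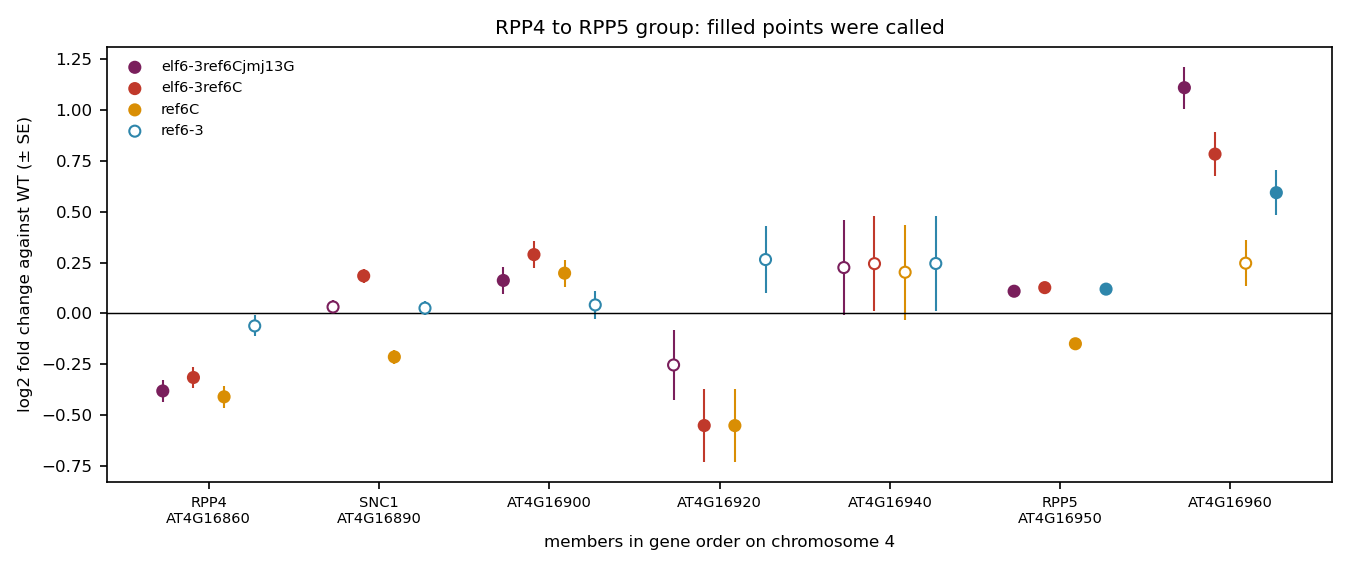
Log2 fold change against WT (± SE) of the 7 members from RPP4 to AT4G16960 in gene order, by mutant, with filled points where the member was called. RPP4 lies below 0 and AT4G16960 above 0 in each mutant (RPP4 was not called in ref6-3, nor AT4G16960 in ref6C), while SNC1 and RPP5 lie above 0 in elf6-3ref6C and below 0 in ref6C.

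RPS6, which recognises a Pseudomonas effector, lies in a group of 5 on chromosome 5. In elf6-3ref6C, 4 of this group were higher than in WT and 0 lower. The shares higher and lower were 45.5% and 19.5% of TIR members, and 33.7% and 34.8% of all genes. RPS6 averaged 65.8 ± 2.1 CPM in elf6-3ref6Cjmj13G, 70.8 ± 2.0 in elf6-3ref6C, 51.2 ± 0.6 in ref6C and 59.0 ± 1.6 in ref6-3, against 55.6 ± 1.6 in WT. Its ref6C call was lost without WT replicate 3 (adjusted p = 0.0612). RRS1, the decoy-carrying partner of RPS4, was not called in any of the 7 comparisons and had 26.98 to 30.74 CPM over all libraries. RPP8, a CC receptor for downy mildew, averaged 89.7 ± 4.9, 96.8 ± 2.1, 71.8 ± 3.8 and 89.0 ± 0.8 CPM in elf6-3ref6Cjmj13G, elf6-3ref6C, ref6C and ref6-3, against 84.6 ± 3.0 in WT. It was called lower in ref6C and higher in elf6-3ref6C. RPP8 shares 95.09% of aligned coding bases with AT5G48620. Of the 30 receptor genes of known function looked at, members or not, 29 were tested, and 18 were higher and 6 lower in elf6-3ref6C than in WT, whereas 3 were higher and 14 lower in ref6C. The shares over all genes were 33.7% higher and 34.8% lower in elf6-3ref6C, and 18.4% higher and 20.4% lower in ref6C. RLM1 was among the genes lower in elf6-3ref6C, so that lower count is a description.

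Setting mutants against each other showed the contrasts directly. In elf6-3ref6C against ref6C, 39 TIR members were higher and 4 lower, and 13 CC members were higher and 2 lower, at a background of 61.2% called, 30.7% higher and 30.6% lower. The median log2 fold change was 0.18 for the TIR class and 0.23 for the CC class, against -0.008 for all genes. Calls of at least 2-fold numbered 10 higher and 3 lower in the TIR class and 2 higher and 0 lower in the CC class, against 3.31% and 5.7% of all genes. AT3G04220, AT3G25510, AT4G14370, AT5G38340 and AT1G58400 were among the higher genes. They passed the filter through the groups where they were high, so the higher counts are a description. The lower TIR counts are a description as well, since they include RLM1, which passed through WT and the single mutants. Without ref6C replicate 3 the counts were 38 and 3 for the TIR class and 12 and 1 for the CC class, at a background of 28.6% and 28.3%. Without elf6-3ref6C replicate 3, 2 TIR members were lower. The CC count of lower members was 1 without elf6-3ref6C replicate 1, elf6-3ref6C replicate 3 or ref6C replicate 2. AT5G41740, the neighbour of AT5G41750, had 7.38, 8.03 and 7.69 CPM in elf6-3ref6C, against 2.66, 2.43 and 3.48 CPM in ref6C (log2 fold change 1.44 ± 0.13, edgeR adjusted p = 1.2e-10). Its WT libraries lay between, at 4.42, 4.41 and 5.16 CPM.

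In elf6-3ref6Cjmj13G against elf6-3ref6C, 1 TIR member was higher and 19 lower, and 1 CC member was higher and 4 lower. All genes were called in 20% of cases, 8.58% higher and 11.4% lower, and 24.7% of TIR members were lower. AT5G41750 was lower by -0.93 ± 0.10 and AT5G41740 by -0.72 ± 0.11 on the log2 scale. The higher members were AT4G16960 and AT5G43740, and neither held in every fit. The AT4G16960 call was lost without elf6-3ref6Cjmj13G replicate 2, elf6-3ref6C replicate 1 or elf6-3ref6C replicate 3 (adjusted p between 0.0504 and 0.0946), and the AT5G43740 call without elf6-3ref6Cjmj13G replicate 2 or 3 or elf6-3ref6C replicate 2 or 3 (0.0888 to 0.132). Without ref6C replicate 3, 2 CC members were higher. The CC count of lower members was 1 without elf6-3ref6Cjmj13G replicate 3 and 2 without elf6-3ref6C replicate 1. AT5G35450 did not pass the test (-0.03 ± 0.05). By 2-fold or more, calls numbered 0 higher and 2 lower in the TIR class and 0 higher and 1 lower in the CC class, against 0.419% and 0.879% of all genes. AT3G04220 and AT1G58400 were among the lower genes and passed the filter through the groups where they were high, so these counts are a description.

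The 2 REF6 alleles differed from each other. In ref6C against ref6-3, 3 TIR members were higher and 22 lower, and 1 CC member was higher and 9 lower, at a background of 33.9% called, 17.2% higher and 16.8% lower. Without ref6C replicate 3 the counts were 3 and 20, and 1 and 8, at 13.8% and 15.7%. Calls of at least 2-fold were 0 in the TIR class in both directions and 1 lower in the CC class, AT1G58400 (-2.31 ± 0.33 on the log2 scale), against 3.49% higher and 0.991% lower of all genes. This CC count is a description, since AT1G58400 passed the filter on low counts through the groups where it was high. The 3 higher TIR members were 1 without ref6C replicate 1, ref6C replicate 2, ref6-3 replicate 1, ref6-3 replicate 2 or elf6-3ref6Cjmj13G replicate 1, and the higher CC member, ADR1, was not called without ref6-3 replicate 1 or 2 or ref6C replicate 1 or 2 (adjusted p between 0.0558 and 0.109). Summed tapetum markers were also lower in ref6C than in ref6-3, and pollen markers higher, as given above. AT4G19530 had 11.7, 10.3 and 10.9 CPM in ref6C and 15.1, 14.6 and 14.6 CPM in ref6-3, a log2 difference of -0.43 ± 0.06 (edgeR adjusted p = 3.9e-06).

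Genes that act with the receptors were looked at next. Of 10 genes of the EDS1 module and helper receptors, 3 of them members, 6 were higher and 2 lower in elf6-3ref6Cjmj13G, 7 higher and 0 lower in elf6-3ref6C, 0 higher and 7 lower in ref6C, and 2 higher and 2 lower in ref6-3 than in WT. Over all genes, the shares higher and lower were 32% and 34.4%, 33.7% and 34.8%, 18.4% and 20.4%, and 16.2% and 18.5% in the same order. The 2 higher genes in ref6-3 were EDS1 and AT3G48080. Neither was called without ref6-3 replicate 1 (adjusted p = 0.0546 and 0.108), without ref6-3 replicate 2 (0.076 and 0.0514) or with DESeq2 (0.0508 and 0.114), and 1 of them was lost without any 1 WT library. EDS1, the hub of TIR signalling, had 41.2, 42.7 and 40.2 CPM in elf6-3ref6Cjmj13G, 47.7, 48.3 and 45.1 in elf6-3ref6C, 21.9, 23.3 and 24.4 in ref6C and 33.7, 34.1 and 32.8 in ref6-3, against 31.6, 30.7 and 29.8 in WT. All ref6C libraries lay below all WT libraries, and all libraries of both elf6-3 genotypes above them. PAD4, its partner, had 19.3, 17.7 and 19.7 CPM in elf6-3ref6C and 5.995, 5.68 and 6.77 CPM in ref6C, against 8.63, 8.16 and 7.45 CPM in WT. NDR1, used by CC receptors, had 6.44, 6.02 and 5.84 CPM in elf6-3ref6C and 2.21, 2.91 and 2.64 CPM in ref6C, against 5.13, 4.44 and 4.79 CPM in WT. SAG101 differed from these: it was not called in elf6-3ref6C (-0.04 ± 0.07) and fell in ref6C, by -0.99 ± 0.08, and in elf6-3ref6Cjmj13G, by -0.52 ± 0.07.

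Output genes of the salicylate branch, which receptor activation feeds, were mostly higher in both elf6-3 genotypes. Of 11 tested, 8 were higher and 1 lower in elf6-3ref6Cjmj13G, 9 higher and 1 lower in elf6-3ref6C, 3 higher and 3 lower in ref6C, and 1 higher and 4 lower in ref6-3 than in WT, beside the shares over all genes given for the EDS1 module. FMO1 and PR1 were among the genes higher in both elf6-3 genotypes. These 2 passed the filter on low counts only through groups where they were high, so the counts that include them are a description. The higher gene in ref6-3, the salicylate receptor gene NPR1, was not called without WT replicate 3 (adjusted p = 0.0523). PR2, a glucanase gene used as a salicylate marker, had 14.96, 14.3 and 14.3 CPM in elf6-3ref6Cjmj13G, 33.5, 32.1 and 35.2 in elf6-3ref6C, 1.87, 2.77 and 2.79 in ref6C and 0.374, 0.207 and 0.267 in ref6-3, against 0.675, 0.614 and 0.327 in WT. SARD1, a transcription factor that turns on salicylate synthesis genes, had 8.64, 9.28 and 8.93 CPM in elf6-3ref6Cjmj13G and 15.2, 13.4 and 14.7 CPM in elf6-3ref6C, against 2.43, 1.81 and 2.40 CPM in WT. Both genes were highest in elf6-3ref6C and did not overlap WT in either elf6-3 genotype. ICS1, the salicylate synthesis enzyme gene that SARD1 acts on, was not called in any comparison (0.03 ± 0.11 in elf6-3ref6C), and PBS3, which acts after it, was lower in all 4 mutants (-0.82 ± 0.05 in elf6-3ref6C).

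**Figure D5:**
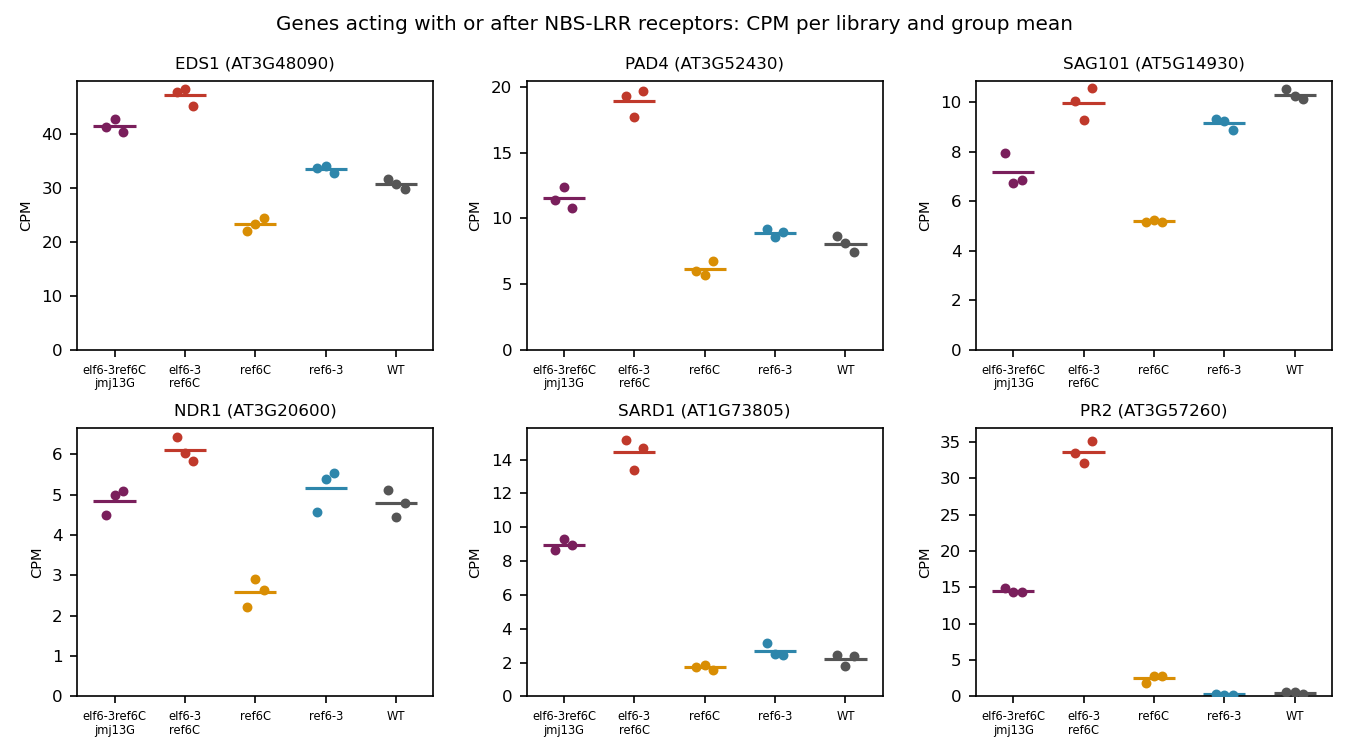
CPM per library (points) and group mean (line) of EDS1, PAD4, SAG101, NDR1, SARD1 and PR2, with mutants left of WT. EDS1, PAD4 and NDR1 are lowest in ref6C and highest in elf6-3ref6C, and PR2 reaches 35.2 CPM in elf6-3ref6C against at most 0.675 CPM in WT.

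Chaperones and turnover factors of the receptors were mixed: of 10, 5 were higher and 3 lower in elf6-3ref6C, and 6 higher and 3 lower in elf6-3ref6Cjmj13G than in WT. The lower counts were near the share over all genes, 34.8% in elf6-3ref6C and 34.4% in elf6-3ref6Cjmj13G, where 33.7% and 32% were higher. SGT1A, a co-chaperone for receptors, was lower by -0.94 ± 0.05 in elf6-3ref6C, and its paralogue SGT1B was higher by 0.26 ± 0.03. Of 10 proteins that receptors guard, 5 were higher and 0 lower in elf6-3ref6C than in WT, against 33.7% and 34.8% of all genes. Of 6 genes of the small RNA route that trims receptor transcripts, 2 were higher and 0 lower in elf6-3ref6C than in WT. The higher count was near the share over all genes, 33.7%. These were RDR6 and AGO1, by 0.34 ± 0.04 and 0.50 ± 0.03 on the log2 scale, and the other 4 were not called.

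The authors' deposited table gives its own adjusted p-values against WT, with fold changes written as WT over mutant, which are turned here to mutant over WT. In the authors' deposited table, 20 TIR members were higher and 13 lower in elf6-3ref6Cjmj13G, 31 and 13 in elf6-3ref6C, 0 and 14 in ref6C, and 6 and 7 in ref6-3. For the CC class the authors' deposited table has 7 higher and 3 lower, 9 and 1, 2 and 4, and 3 and 1 in the same mutants.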

How the data were processed

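RNA was extracted with a plant mini kit and made into stranded total RNA libraries that were sequenced on a NextSeq, per the labels' protocols. STAR, RSEM 1.2.22, DESeq2 and the build TAIR10 appear in the submitters' processing notes, without their roles. The deposited table holds, per the file headers, whole-number counts per gene, RSEM FPKM values, and the authors' log2 fold changes (WT over mutant) and p-values, for which ref6C replicate 3 was left out. Rows of all 33323 genes name a gene.

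From the deposited counts, edgeR 4.0.16 (R 4.3.3) was run on all 15 libraries in 1 fit, with its expression filter, TMM factors and the quasi-likelihood test, without a replicate block. The 7 comparisons were adjusted by Benjamini-Hochberg over the 22411 genes tested. CPM values are counts scaled to the TMM-normalized library size; FPKM was used only for levels between genes. The fitting code was tested on simulated data. Alternatives were relative log expression factors, DESeq2 1.42.0, other filters, fits of 2 groups, a replicate block and leaving out each library. Members were matched to RefSeq TAIR10.1 by locus for positions, copies (blastn 2.17.0) and upstream windows; all 114 matched. Pairs of libraries of 1 group differed by 1.41 to 2.81 times the sampling noise in a chi-square test, so none was merged.

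Named members were those called with the largest log2 fold changes in each direction (against WT, up to 5 TIR and 4 CC members), with a log2 CPM averaging 0 or more and with groups that did not overlap, the highest 5 of each class in WT, and receptors of known function. Members and lists were chosen with earlier results of these data known. Marker and pathway lists were written from general knowledge, and sums of green tissue and senescence markers were also computed. For 1 CC member, values of its own are not reported here; it stays in the class counts and sums.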

Additional observations from a re-analysis of the deposited data

How the results depend on the processing

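Of 406 called values of named genes, 318 kept their call under every alternative, 88 lost it under at least 1 and none changed sign. With DESeq2, the CC counts were 3 lower in elf6-3ref6Cjmj13G, 4 lower in ref6C and 3 higher in ref6-3 against WT. In ref6C against ref6-3, DESeq2 gave 1 TIR and 0 CC members higher. In elf6-3ref6C against ref6C it gave 1 CC member lower, and in elf6-3ref6Cjmj13G against elf6-3ref6C it gave 0 TIR and 0 CC members higher and 12 TIR and 2 CC members lower. TIR members higher in ref6C against WT numbered 1 with DESeq2, with no filter and with only the 2 groups fitted. With no filter, 2 TIR and 2 CC members were higher in elf6-3ref6Cjmj13G than in elf6-3ref6C, and 1 CC member was lower in elf6-3ref6C than in ref6C. With only the 2 groups fitted, these counts were also 2, 2 and 1, with 2 CC members lower in elf6-3ref6C than in WT and 1 TIR member lower in elf6-3ref6C than in ref6C. Relative log expression factors gave 1 TIR member higher in ref6C than in ref6-3, and a filter of 1 CPM gave 1 TIR member lower in elf6-3ref6C than in ref6C. The cause was not tested.

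Replicate numbers were not shown to pair the libraries: the deviations of same-numbered libraries correlated between -0.386 and 0.254 over 30 pairs, and 1 of 15 libraries was closest to its own number. With the replicate block, 1 TIR member was higher in ref6C than in ref6-3, and the other class counts stayed within 1.5 times.

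Leaving out 1 library at a time gave these ranges. In elf6-3ref6Cjmj13G against WT, 18 to 24 TIR members were higher and 13 to 18 lower, and 6 to 10 CC members were higher and 4 to 7 lower. In elf6-3ref6C against WT, 32 to 37 TIR members were higher and 11 to 16 lower, and 9 to 11 CC members were higher and 1 to 2 lower. In ref6C against WT, 0 to 3 TIR members were higher and 16 to 22 lower, and 2 to 3 CC members were higher and 5 to 8 lower. In ref6-3 against WT, 7 to 9 TIR members were higher and 7 to 12 lower, and 3 to 5 CC members were higher and 3 to 3 lower. In ref6C against ref6-3, 1 to 3 TIR members were higher and 17 to 22 lower, and 0 to 1 CC members were higher and 7 to 9 lower. In elf6-3ref6C against ref6C, 34 to 40 TIR members were higher and 2 to 6 lower, and 12 to 13 CC members were higher and 1 to 3 lower. In elf6-3ref6Cjmj13G against elf6-3ref6C, 0 to 1 TIR members were higher and 14 to 20 lower, and 0 to 2 CC members were higher and 1 to 6 lower.

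Depth limits the low members: the 12 that were not tested had too few counts for a call.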
